A study of Mus musculus with 4 samples.

Results

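The epithelial cells of KP mouse lung adenocarcinomas were compared between a library loaded before, and a library loaded after, magnetic removal of CD45-positive and CD31-positive cells. CD45, encoded by Ptprc, marks leukocytes, and CD31, encoded by Pecam1, marks endothelium. Epithelial cells were droplet barcodes with at least 1000 unique molecular identifiers (UMIs, each 1 captured transcript), at least 500 genes, at most 20% of UMIs from mitochondrial genes, no Ptprc UMI, and a sum of 2 or more UMIs over the epithelial genes Epcam, Krt8, Krt18 and Cdh1. This gave 4183 cells, 749 pre-depletion and 3434 post-depletion, of 13493 barcodes that passed the first 3 limits in the 4 libraries of the series. They held 17317165 and 48739553 UMIs.

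Both KP libraries came from mixed 129/B6 mice that carried p53frt, had Rosa-FSF-CreERT2 as the source of recombinase, and were heterozygous for conditional alleles of the lung transcription factors (Foxa1flox/+ and Foxa2flox/+). An adenovirus carrying FlpO under the mouse surfactant protein C promoter (Ad5-mSPC-FlpO) started the tumours, which therefore begin in cells that use that promoter. FlpO switches on the tamoxifen-dependent recombinase CreERT2 and removes p53. Tamoxifen at 120 mg/kg was given as 4 daily injections 10 weeks later, so that 1 allele each of Foxa1 and Foxa2 was open to deletion in both libraries, and tumours were taken at 12 weeks. A second pair of libraries from KPF1F2 mice, with Foxa1flox and Foxa2flox in place of the heterozygous alleles and the same virus, tamoxifen and time, was used only as another depletion pair, with 223 epithelial cells pre-depletion and 2103 post-depletion. The labels do not say how many mice were pooled, or whether both libraries of a pair share mice. With 1 library on each side there was no replicate, no test was made, and every difference is between libraries. Intervals are 95% and cover counting error only.

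Alveolar type 2 cells make surfactant, the lipid and protein film that keeps the air sacs open, and are a known origin of lung adenocarcinoma. As these tumours progress, cells are known to lose alveolar genes under Nkx2-1, the lung lineage factor, and some take on genes of the stomach. Enzymatic digestion and sorting are known to induce immediate-early genes such as Fos and Jun and heat shock genes within the handling time. Droplets can also take up RNA released into the suspension by other cells.

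Cells with either marker were far fewer post-depletion. Barcodes with a Ptprc UMI made up 67.7% (66.2 to 69.2, Clopper-Pearson) of the 3797 kept pre-depletion and 0.552% (0.338 to 0.852) of the 3622 kept post-depletion, and Pecam1-positive barcodes went from 12.8% to 0.663%. Epithelial cells made up 19.7% and 94.8% of kept barcodes. The epithelial cells of the post-depletion library were shallower, with a median of 10209 UMIs and 2713 genes against 15529 UMIs and 3413 genes, and their median mitochondrial share was 4.91% against 3.88%. Of all barcodes with at least 1000 UMIs, 45.8% post-depletion and 26.0% pre-depletion exceeded the mitochondrial limit. Among barcodes that met every other condition of the epithelial gate, that share was 25.4% (24.2 to 26.7) post-depletion and 24.1% (21.5 to 26.9) pre-depletion. The libraries shared 16 barcodes, none of them epithelial in both. At the edge of the gate, 52 and 134 cells had exactly 2 UMIs of the 4 epithelial genes, and 122 and 110 otherwise eligible barcodes had 1.

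The gate kept lung epithelium on both sides. Lung and general epithelial genes that the gate did not use were read in CPM, the summed UMIs of a gene scaled to a common total of 1e6. The 10 listed summed to 5411 CPM pre-depletion and 5955 CPM post-depletion. Krt19, a keratin of simple epithelium, stood at 656 CPM pre-depletion and 917 CPM post-depletion. Nkx2-1 stood at 195 CPM pre-depletion and 153 CPM post-depletion. The transcript of the recombinase, CRE-ERT2, which Flp activates in tumour cells, stood at 35.5 CPM (32.8 to 38.4) and 34.4 CPM (32.8 to 36.1), so that the interval of its ratio, 0.883 to 1.06, included no difference. It was seen in 256 of 749 and 990 of 3434 cells. Cdh1, the epithelial cadherin, was level at 160 and 158 CPM, whereas Krt8 and Krt18, keratins of simple epithelium, were 1.48-fold and 1.45-fold higher post-depletion. Epcam was 1.25-fold higher, at 625 and 781 CPM. These 4 genes made up the gate, which can move their levels.

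Summed expression was close between the libraries. Of 5653 genes with a mean of at least 20 CPM, 47 (0.831%) stood 2-fold or more higher post-depletion and 16 (0.283%) 2-fold or more lower, as log2 of the CPM plus 1 on each side. The median gene differed by 0.06 on that log2 scale, and the 5th to 95th percentiles ran from -0.37 to 0.43. In total 63% of genes lay above 0 and 37% below. In cells of 10000 to 30000 UMIs, where depth was closer, those counts were 142 and 101.

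**Figure D1:**
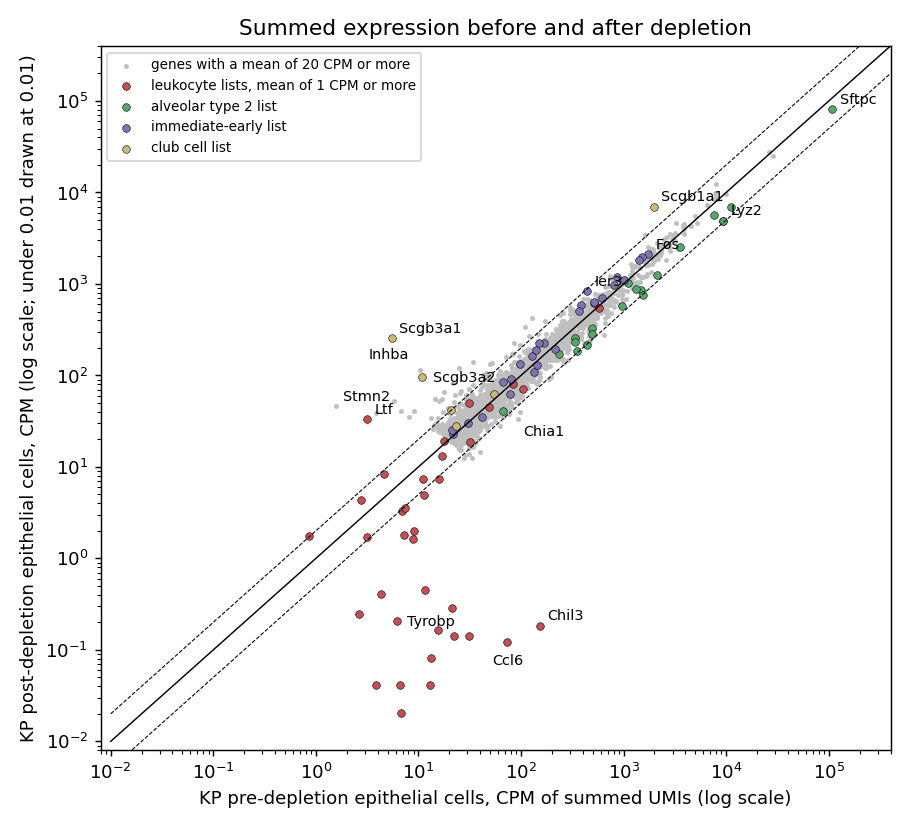
CPM of each gene over summed KP epithelial cells, pre-depletion (horizontal) against post-depletion (vertical), both on log axes, with equality as a solid line and 2-fold differences as dashed lines. Leukocyte genes such as Chil3 (154 against 0.185 CPM) lie far below the line, the secretoglobins Scgb3a1 and Scgb1a1 lie above it, and alveolar type 2 genes lie just below it.

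Many leukocyte genes were lower post-depletion, some to near 0. Chil3 (chromosome 3, 106147554 to 106167564, minus strand, GRCm38), a chitinase-like protein of alveolar macrophages, stood at 154 CPM (148 to 160) pre-depletion and 0.185 CPM (0.0844 to 0.351) post-depletion, an 834-fold difference. It had 2668 and 9 UMIs. Ccl6, a macrophage chemokine, stood at 72.7 and 0.123 CPM. Tyrobp, a signalling adaptor of myeloid cells, went from 31.0 to 0.144 CPM, and Laptm5, a lysosomal membrane protein of blood cells, from 12.9 to 0.041 CPM. All of these were read in cells without a Ptprc UMI.

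Of the 68 members of 6 leukocyte lists (neutrophil, alveolar macrophage, monocyte and macrophage, T and natural killer cell, B cell, dendritic cell), 37 had a mean of at least 1 CPM. Of these, 19 were at least 2-fold lower and 1 was 2-fold or more higher, where 1.09% and 1.55% of the 12631 genes at that level were. The mean is over both libraries, so members near 0 post-depletion passed only through the pre-depletion side, such as C1qc at 3.87 and 0.041 CPM. The counts and median of the list therefore depend partly on that filter. In all 31 lay below 0 and 6 above, where 43.2% and 56.8% of genes did. The median of the 37 was -1.04, beside 0.04 over all genes at that level. At the minimum of 20 CPM used for the other lists, few leukocyte genes were left, with medians of -0.56 over 1 neutrophil gene, -0.76 over 3 alveolar macrophage genes, -0.48 over 4 monocyte and macrophage genes and -0.09 over 1 dendritic cell gene. The 1 higher member was Ltf, the secreted iron-binding protein lactoferrin, at 3.18 and 33.1 CPM. Barcodes with 2 or more Ptprc UMIs held Ltf at 1.67 CPM pre-depletion. It was singled out after its values were seen. Other listed genes kept most of their level, such as Cd14, a coreceptor for bacterial lipopolysaccharide, at 83.8 and 81.6 CPM, and Cst3, the protease inhibitor cystatin C, at 575 and 540 CPM. In the KPF1F2 pair the same list had a median of -2.20.

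Several leukocyte genes that were near absent post-depletion had stood at 0.741% to 1.44% of their level in leukocytes of the same library. Leukocytes were taken as the 2277 pre-depletion barcodes with 2 or more Ptprc UMIs, and the level in epithelial cells was 1.28% of the leukocyte level for Chil3, 1.08% for Ccl6 and Ear2, 1.26% for Tyrobp, 0.978% for Fcer1g, 0.741% for Ctss, 0.825% for C1qa and 1.44% for S100a8. These genes belong to different leukocytes: Ear2 to alveolar macrophages, C1qa, a complement subunit, to other macrophages, and S100a8 to neutrophils. Ccl5, a T cell chemokine that was also near absent post-depletion, had another ratio, 9.15%. Near-absent T and natural killer cell genes under 1 CPM pre-depletion had 0.278% for Gzma, 0.545% for Cd3e, 0.551% for Il7r, 0.679% for Cd3d and 1.11% for Nkg7. The top 1% of pre-depletion cells held 27.6% of Ctss, 46.7% of S100a8, 60.7% of C1qa and 94.0% of Ccl5 UMIs, so some ratios rest on few cells. Genes that were still present post-depletion had ratios over a wide range, with 1.36% for Mrc1 (7.33 and 3.57 CPM), 1.76% for Csf1r (3.18 and 1.70 CPM), 2.77% for Retnlg (2.77 and 4.35 CPM), 4.79% for Plet1 (48.4 CPM pre-depletion and a log2 difference of -0.10), 15.6% for Cd14, 16.2% for Cst3, 38.8% for Plac8 and 64.0% for Cd79b. Cells outside the epithelial gate that expressed collagens, 31 pre-depletion and 51 post-depletion, carried Chil3 at 130 CPM and at 0 CPM, close to the 154 and 0.185 CPM of epithelial cells.

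The Chil3 signal was spread over most cells and also concentrated in a few. With full depth, 82.0% of pre-depletion and 0.0874% of post-depletion epithelial cells had a Chil3 UMI. Among other genes near absent post-depletion, the pre-depletion share was 54.3% for Ccl6, 29.0% for Tyrobp, 27.9% for Ctss, 6.68% for C1qa and 6.28% for S100a8. When each cell was thinned to 3000 UMIs, leaving out 132 and 643 shallower cells, the Chil3 shares were 33.1% and 0.0717%. The 1% of cells with the most held 40.9% of the Chil3 UMIs, and 15 cells inside the gate pre-depletion, against 0 of 3434 post-depletion, which by a floor of 3 counts allows a share of up to 0.0874%, carried 20 or more UMIs of the macrophage genes Chil3, Ccl6, Marco, Ear2 and Atp6v0d2. Without the 1% of cells with most Chil3 and Ccl6 UMIs, an alternative added after the data were seen, the leukocyte list median was -0.92. Among those with 1 Ptprc UMI that otherwise met the gate, 82 pre-depletion and 17 post-depletion, Tyrobp stood at 109 CPM pre-depletion, above the 31.0 CPM of the cells with none.

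**Figure D2:**
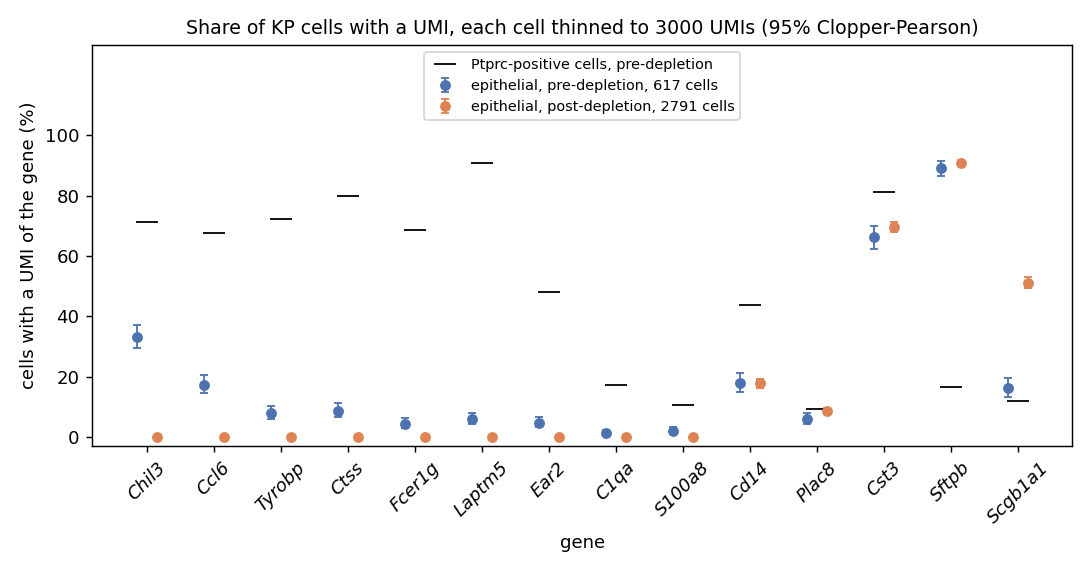
Share of KP epithelial cells with a UMI of each gene when every cell is thinned to 3000 UMIs (points, with 95% Clopper-Pearson intervals), and the same share in Ptprc-positive cells of the pre-depletion library (dashes). Chil3 is at 33.1% pre-depletion and 0.0717% post-depletion, Cd14 at 17.8% and 17.7%, and Scgb1a1 at 16.2% and 51.1%.

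Major histocompatibility complex class II genes, which present antigen to T cells and are known in type 2 cells as well as in leukocytes, were lower without vanishing. All 6 measured members were lower, with a median of -0.55, where 37% of all genes lay below 0. The invariant chain Cd74 stood at 3377 and 2433 CPM, and H2-Aa at 666 and 377 CPM. In pre-depletion leukocytes Cd74 stood at 7577 CPM. Endothelial genes differed among themselves. The 13 listed genes summed to 296 and 243 CPM, and of the 2 measured ones Ly6c1 was level at 177 and 177 CPM and Esam stood at 55.8 and 40.6 CPM. Egfl7 stood at 20.5 and 17.4 CPM. Pecam1, the target of the depletion, stood at 6.58 and 0.595 CPM, and Cdh5, the endothelial cadherin, at 5.89 and 0.185 CPM. The top 1% of cells held 90.4% of the Pecam1 UMIs pre-depletion.

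The reverse held for secreted proteins of airway club cells. Scgb1a1 (chromosome 19, 9083636 to 9087958, minus strand, GRCm38), the main club cell secretoglobin, stood at 1959 CPM pre-depletion and 6996 CPM post-depletion, a ratio of 3.57 (3.53 to 3.61). Scgb3a1 went from 5.54 to 255 CPM and Scgb3a2 from 10.8 to 96.6 CPM. Of 6 measured club cell genes, 3 were at least 2-fold higher, where 0.831% of all genes were. Among these 3, Scgb3a1 and Scgb3a2 were under the minimum of 20 CPM pre-depletion and passed it only through the post-depletion side. Cyp2f2, a cytochrome P450 of club cells, was 1.17-fold higher at 54.1 and 63.2 CPM.

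These UMIs came almost entirely from few cells. Cells with 300 or more Scgb1a1 UMIs numbered 3 of 749 and 38 of 3434, 0.401% and 1.11%. The top 1% of cells held 98.0% and 95.7% of the Scgb1a1 UMIs. Below those cells the gene was still detected widely: 39.7% of pre-depletion and 92.5% of post-depletion cells had a Scgb1a1 UMI, and without the top 1% its level was 40.2 and 309 CPM. Collagen-expressing cells outside the gate carried it at 26.7 and 265 CPM. Surfactant protein C in those same collagen-expressing cells stood at 393 and 2513 CPM, so that this epithelial transcript too was higher in non-epithelial droplets post-depletion. The part of such RNA in the epithelial values was not tested.

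Fibroblast genes were also read inside the gate. All 6 measured members lay above 0, where 63% of all genes did, with a median of 0.63, and the listed genes summed to 1075 and 1541 CPM. Post-depletion, the top 1% of cells held 85.6% of Col1a1, 87.7% of Col1a2 and 84.9% of Col3a1 UMIs, collagen genes of fibroblasts, and 39.0% of those of Dcn, decorin. Cells with 20 or more collagen and decorin UMIs inside the gate made up 3.07% and 3.29%. They had medians of 56057 and 17108 UMIs, against 15529 and 10209 in all gated cells. They also carried Sftpc, at 151769 and 111113 CPM, against 108547 and 81285 CPM in all gated cells. The mesothelial gene Msln, the only measured member of its list, had a log2 difference of 1.43.

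Immediate-early genes, which encode short-lived regulators switched on by handling among many stimuli, were slightly higher post-depletion. Of 27 measured members 22 lay above 0, where 63% of all genes did, with a median of 0.29 beside 0.06 for all genes. None differed 2-fold. With each cell thinned to 3000 UMIs the median was 0.12. Together they made up 11740 CPM pre-depletion and 14821 CPM post-depletion. Fos (chromosome 12, 85473890 to 85477273, plus strand, GRCm38), a subunit of the AP-1 transcription factor, stood at 1732 and 2125 CPM, and Jun, its partner, at 1527 and 1954 CPM. The largest difference was in Ier3, a survival factor of the family, at 440 and 838 CPM, followed by the stress regulator Atf3 at 387 and 583 CPM and the small GTPase Rhob at 150 and 225 CPM. The other 5 members were lower, among them the cytokine-signal inhibitor Socs3 at 77.8 and 62.0 CPM and the nuclear receptor Nr4a1 at 133 and 110 CPM.

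Heat shock genes, which encode chaperones that refold proteins, differed less. Of 22 measured members 17 lay above 0, where 63% of all genes did, the median was 0.17 beside 0.06 for all genes, and none was 2-fold different. The small chaperone Hspb1 stood at 161 and 229 CPM, and the Hsp90 genes Hsp90aa1 and Hsp90ab1 at 699 and 960 CPM and at 2133 and 2793 CPM. The inducible Hsp70 genes had differences of both signs: Hspa1a stood at 171 and 209 CPM and Hspa1b at 139 and 130 CPM. Those genes are near-identical copies whose reads the counting could split, so their individual values are uncertain. In the KPF1F2 pair the medians were 0.08 for the immediate-early list and 0.28 for the heat shock list.

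Counted per cell, the same modest shift was seen across most of the distribution in cells of at least 3000 UMIs. The 132 and 643 shallower cells are left out of this count. In them the immediate-early list summed to 10949 and 28201 CPM, and the heat shock list to 6262 and 6405 CPM. With each cell thinned to 3000 UMIs, the median cell had 28 immediate-early UMIs pre-depletion, with quartiles of 14 and 50, and 38 post-depletion, with quartiles of 22 and 61. For heat shock genes the median was 15 (quartiles 10 and 24) and 18 (quartiles 12 and 29). At the upper end the order turned for immediate-early genes, where the 95th percentile was 124 pre-depletion and 118 post-depletion. Cells of 3000 to 10000 UMIs held that tail, with a 95th percentile of 198 pre-depletion and 145 post-depletion.

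**Figure D3:**
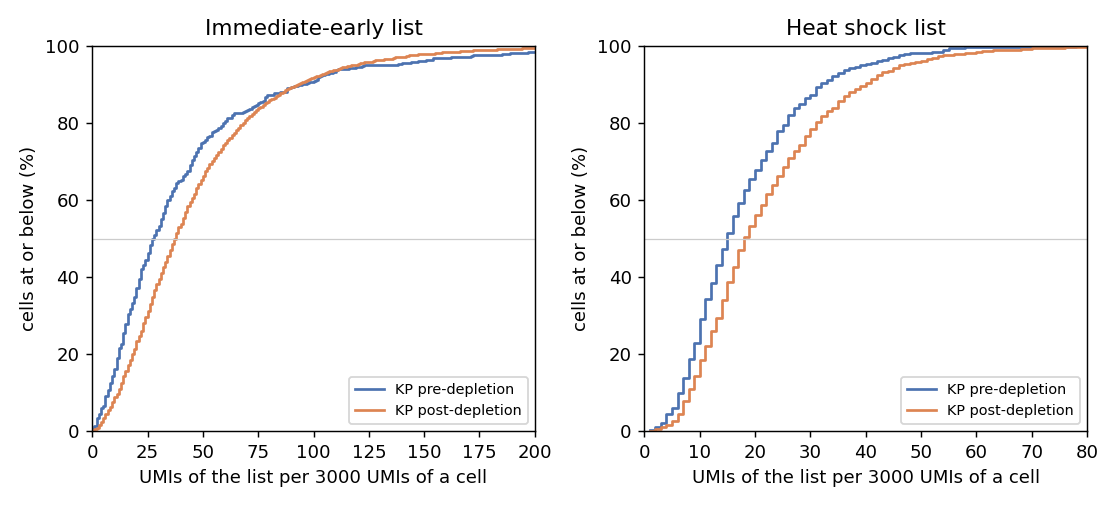
Cumulative share of KP epithelial cells (vertical, percent) by UMIs of the immediate-early list (left) and heat shock list (right) among 3000 UMIs of each cell (horizontal), for 617 pre-depletion and 2791 post-depletion cells. The post-depletion curve lies to the right at the median, 38 against 28 and 18 against 15 UMIs, and the immediate-early curves cross at high counts.

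Other stress lists gave small medians of both signs. The median was 0.16 over 15 genes of the unfolded protein response, 0.17 over 11 genes of NF-kB and chemokines, 0.34 over 5 genes of the p53 pathway, 0.29 over 15 genes of glycolysis and hypoxia, and -0.11 over 13 genes of oxidative and metal stress. No measured member of these 5 lists differed 2-fold. In the p53 list, the growth factor Gdf15 stood at 97.4 and 144 CPM and the cell-cycle inhibitor Cdkn1a at 150 and 196 CPM. Nuclear genes of oxidative phosphorylation had a median of -0.17 over 71 genes and ribosomal protein genes -0.11 over 79.

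Alveolar type 2 genes were lower post-depletion as a group. All 19 listed genes were measured and all 19 lay below 0, where 37% of all genes did, with a median of -0.67, and 2 were at least 2-fold lower where 0.283% of all genes were. Sftpc (chromosome 14, 70520949 to 70524081, minus strand, GRCm38), surfactant protein C, stood at 108547 and 81285 CPM. Sftpa1, another surfactant protein, stood at 11100 and 6916 CPM, and Slc34a2, the phosphate transporter of type 2 cells, at 1495 and 852 CPM. The lowest were S100g, a calcium-binding protein, at 437 and 213 CPM, and Scd1, which desaturates fatty acids for surfactant lipids, at 1547 and 761 CPM. The smallest difference was in the protease Ctsh, at 1105 and 1030 CPM. In the KPF1F2 pair the median was -0.45. With equal weight per cell the KP median was -0.36, and with cells thinned it was -0.37.

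Lysozyme genes were lower as well. Lyz2, which type 2 cells and macrophages share, stood at 9336 and 4940 CPM, with 24939 CPM in the pre-depletion leukocytes. Lyz1 stood at 638 and 279 CPM, with only 31.5 CPM in leukocytes, and since the 2 genes are close copies their split is uncertain. Beyond the listed genes, the lowest named ones included Chia1, an acidic chitinase, at 93.3 and 33.2 CPM, the membrane protease Mme at 97.4 and 40.0 CPM, and the cytokine Il33 at 289 and 148 CPM. The top 1% of pre-depletion cells held 77.4% of the Chia1 UMIs but 16.1% of the Mme UMIs.

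Genes of alveolar type 1 cells, the thin cells that exchange gas, were lower to a smaller degree. Of 17 measured, 14 lay below 0, where 37% of all genes did, and the median was -0.27. Hopx, a homeodomain protein of type 1 and some type 2 cells, stood at 188 and 91.5 CPM, and Ager, an abundant type 1 receptor, at 987 and 671 CPM. Igfbp2, a marker of mature type 1 cells that was below the level for measurement and was singled out after its values were seen, stood at 18.7 and 0.657 CPM. In the KPF1F2 pair it stood at 55.4 and 3.12 CPM.

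Genes of the transitional alveolar state, in which injured or transformed type 2 cells raise keratins, were higher. Of 15 measured, 14 lay above 0, where 63% of all genes did, and the median was 0.47, and the chromatin protein Hmga2, a marker of advanced tumours, was 2.28-fold higher at 31.0 and 70.6 CPM. Krt8 and Krt18 belong to this list and also to the gate. Tm4sf1, a tetraspanin-like membrane protein, stood at 301 and 523 CPM, Ndrg1, a hypoxia-responsive gene, at 96.4 and 163 CPM, and Krt19 at 656 and 917 CPM.

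Genes of the stomach and gut split. Of 21 listed, 8 were measured and 6 lay above 0, where 63% of all genes did, with a median of 0.42. Of the 8, 2 were at least 2-fold higher, where 0.831% of all genes were. Ctse (chromosome 1, 131638306 to 131675505, plus strand, GRCm38), the gastric protease cathepsin E, stood at 97.0 CPM (92.4 to 102) and 218 CPM (213 to 222), and Apob, an apolipoprotein of gut and liver, at 84.3 and 171 CPM. Hnf4a, a gut and liver transcription factor, stood at 16.7 and 24.3 CPM. Gkn2, a gastrokine of the stomach lining, was slightly lower at 618 and 543 CPM, and Pigr, which carries antibodies across epithelium, stood at 34.2 and 19.6 CPM. Tff1, a trefoil peptide of stomach mucus, was too low to be measured on the pre-depletion side, with 7 UMIs there and 1399 post-depletion, and was singled out after its values were seen.

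Cells were then assigned to states by a marker, after thinning to 3000 UMIs: at least 30 UMIs of Sftpc, or at least 2 of Gkn2, Ctse or Bex2. Bex2 is a small adaptor protein studied mostly in neurons. States of 617 pre-depletion and 2791 post-depletion cells could overlap. The Ctse state went from 27 cells, 4.38% (2.90 to 6.30), to 305 cells, 10.9% (9.79 to 12.1), a difference of 6.55 percentage points (4.34 to 8.37). The Sftpc state went from 68.9% (65.1 to 72.5) to 62.3% (60.4 to 64.1), a difference of -6.61 points (-10.6 to -2.45). The Gkn2 state, with 68 and 327 cells, and the Bex2 state, at 2.92% and 3.44%, differed by 0.70 points (-2.25 to 3.25) and 0.52 points (-1.24 to 1.82), intervals that include 0. Other settings gave intervals without 0: the Gkn2 difference was 5.45 points (1.99 to 8.58) with a threshold of 1 UMI, 7.33 (3.51 to 10.2) in cells of 10000 to 30000 UMIs and 3.70 (0.90 to 6.01) in cells of at most 50000 UMIs. The Bex2 difference was 2.50 points (0.44 to 4.18) with cells thinned to 1500 UMIs. The Sftpc difference turned to 1.53 points with a threshold of 10 UMIs and was -0.35 points when cells were thinned to 1500. The Ctse difference was 11.6 points with a threshold of 1 UMI and 2.81 with 4.

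The markers differed in how well they cut. The Sftpc state held 99.5% and 98.7% of Sftpc UMIs, and 5 pre-depletion and 69 post-depletion cells lay just below its threshold and 8 and 52 just above. The Gkn2 state held 94.5% and 90.0% of Gkn2 UMIs, the Ctse state 70.8% and 78.3%, and the Bex2 state only 46.6% and 51.2%, with 47 pre-depletion and 231 post-depletion cells at 1 Bex2 UMI. Among Ptprc-positive cells of the pre-depletion library, 1.94% passed for Sftpc, 1.02% for Ctse, 0.387% for Gkn2 and 0.0968% for Bex2, at a median depth of 14858 UMIs before thinning. After thinning, 8.13% of them had any Ctse UMI and 1.60% any Gkn2 UMI. Whether leukocytes themselves express Ctse was not tested.

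**Figure D4:**
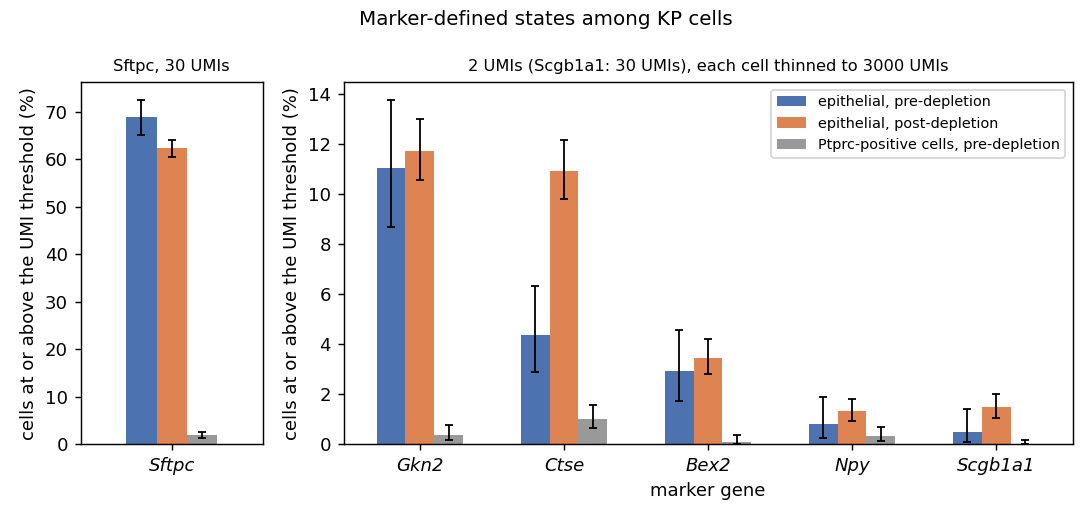
Share of cells at or above the marker threshold (vertical, percent, from 0) in pre-depletion and post-depletion KP epithelial cells and in pre-depletion Ptprc-positive cells, with 95% Clopper-Pearson intervals. Sftpc has its own scale. Ctse is at 4.38% and 10.9%, and the Gkn2 and Bex2 intervals overlap between the libraries.

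Most Gkn2 and Bex2 cells kept Sftpc, and most Ctse cells did not. Of Gkn2 cells, 82.4% (71.2 to 90.5) pre-depletion and 74.9% (69.9 to 79.5) post-depletion were also Sftpc cells, and of Bex2 cells 83.3% and 95.8%. Ctse cells were mostly outside the Sftpc state, with 11.1% (2.35 to 29.2) and 8.85% (5.91 to 12.6) inside it. Gkn2 and Ctse, both stomach genes, were together in 2 of 68 and 25 of 327 Gkn2 cells. A CRE-ERT2 UMI, seen at full depth, was found in 66.7% and 54.4% of Ctse cells, and in 38.8% and 30.7% of the other cells. Ctse cells were deeper, with medians of 29237 and 19322 UMIs, against 20786.5 and 12065.5 in the others. Gkn2 cells also had a CRE-ERT2 UMI more often, at 64.7% and 44.95%, against 36.98% and 31.78% of the others. Bex2 cells differed less, at 44.4% and 36.5% against 39.9% and 33.2%. Sftpc cells had one less often, at 35.8% and 28.1% against 49.5% and 41.98%. The part of depth in these shares was not tested.

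The small group of cells with the neuropeptide Npy differed in summed expression more than in number. Npy stood at 24.6 and 122 CPM, the appetite peptide Qrfp at 14.6 and 55.7 CPM, and the gut hormone Pyy at 26.3 and 67.8 CPM. These were the 3 measured members of a neuropeptide list of 4, and all 3 were at least 2-fold higher, where 0.831% of all genes were. Of the 3, Qrfp was under the minimum of 20 CPM pre-depletion and passed it only through the post-depletion side. Cells with at least 2 Npy UMIs after thinning numbered 5 and 37, 0.810% and 1.33%, a difference of 0.52 points (-0.62 to 1.19). Of these, 2 and 20 were also Ctse cells. The top 1% of cells held 97.4% and 92.6% of Npy UMIs, so the summed level rests on few cells.

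Of the 15 highest named genes, all but Nrk, Fbln2 and Cpe had at least 70.1% of their post-depletion UMIs in the top 1% of cells. Stmn2, a microtubule regulator of neurons, stood at 1.56 and 46.0 CPM, with 96.2% of its post-depletion UMIs in the top 1% of cells. Inhba, the activin A subunit, stood at 10.3 and 116 CPM with 82.2% there, and Timp1, an inhibitor of matrix proteases, at 128 and 426 CPM with 78.3%. Without the top 1% of cells on each side, the log2 difference was 0.94 for Stmn2 in place of 4.20, 3.65 for Inhba in place of 3.37, and 1.79 for Timp1 in place of 1.72. Ctla2a, a protease inhibitor, went from 2.97 to -0.30, the one reversed sign among the 15 highest named genes.

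Differences within a state were smaller than in all cells for some groups and not for others. Each cell was put in 1 state, in the order Gkn2, Ctse, Bex2, Sftpc, which left 154 and 707 cells in none. The immediate-early median was 0.20 within the 355 and 1399 Sftpc cells, 0.05 within Gkn2, 0.34 within Ctse, -0.08 within Bex2 and 0.13 in cells of no state. The heat shock median lay between -0.07 and 0.08 in all 5 groups. Summed over its genes, the heat shock list was higher post-depletion in all 5. It summed to 9272 and 9678 CPM in Gkn2 cells, 11587 and 12273 in Ctse cells and 5287 and 5689 in Bex2 cells. In Sftpc cells it summed to 4968 and 5596 CPM, and in cells of no state to 9271 and 10111 CPM. The alveolar type 2 median was -0.37 in Sftpc cells and -0.49 in Bex2 cells, but 0.07 in Gkn2 cells, 0.10 in Ctse cells and 0.10 in cells of no state. Only 15 pre-depletion cells were of the Bex2 state and 25 of the Ctse state.

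The depth of the cells compared also went with the size and sign of these medians. The alveolar type 2 median was -1.04 in cells over 30000 UMIs and -1.02 in cells of 10000 to 30000 UMIs, but 0.21 in cells of 3000 to 10000 UMIs and 0.29 below 3000. The immediate-early median was 0.16, 0.38, -0.22 and 0.88 in the same order. Leukocyte genes, the same 37 that passed 1 CPM in all cells, had medians below 0 at every depth. These were -0.79, -1.02, -2.62 and -4.61 from the deepest cells to the shallowest. In CRE-ERT2-positive cells, 256 and 990, medians were 0.29 for immediate-early genes, -0.85 for alveolar type 2 genes and -0.83 for leukocyte genes. The part that depth plays in these differences was not tested.

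**Figure D5:**
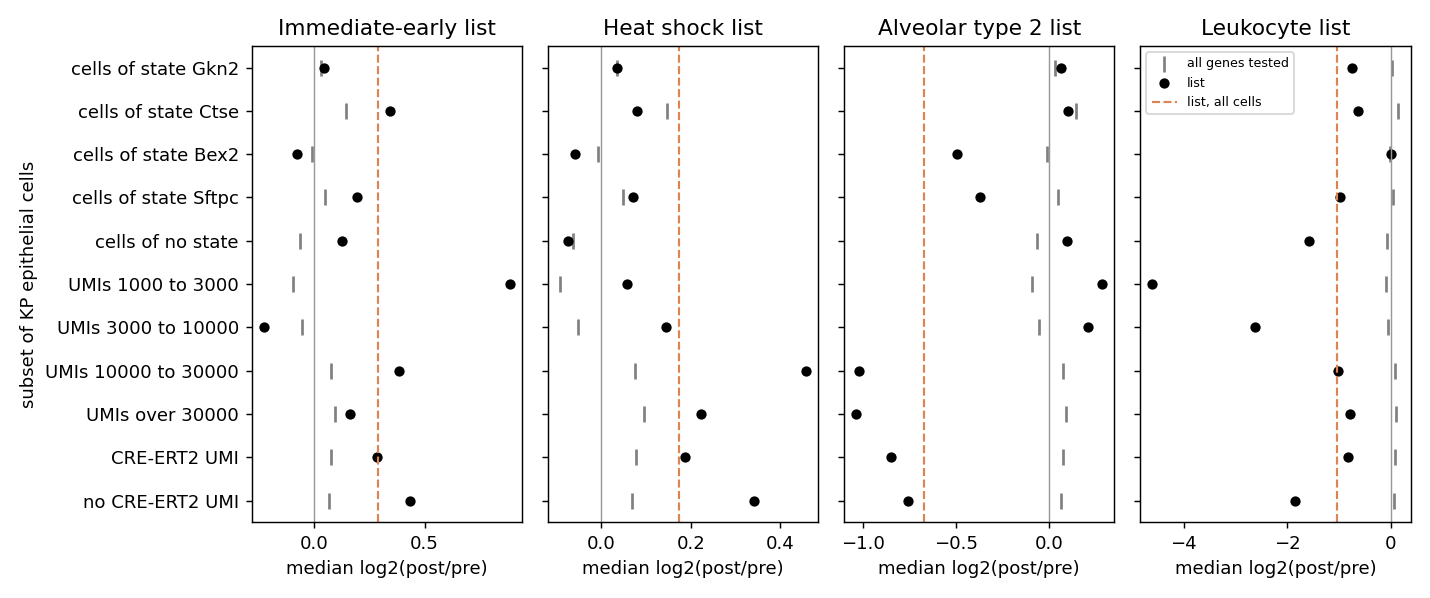
Median log2 of post-depletion over pre-depletion CPM (horizontal) for 4 gene lists (black points) and for all genes tested (grey ticks) within subsets of KP epithelial cells by state, depth and CRE-ERT2 (vertical), with the median in all cells as a dashed line. The alveolar type 2 list lies near -1.04 in the deepest cells and above 0 in cells under 10000 UMIs, and the leukocyte list lies below 0 in 10 of 11 subsets.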

How the data were processed

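UMI counts per gene and barcode, as deposited, came from the authors' run of Cell Ranger, version 6.0.0 per the file headers, on 10x Genomics 3′ version 3.1 libraries, per the labels' protocols. Per the submitters' processing notes, reads were placed on mm10. For annotation, strand setting and barcode filter: not given in the sources used here. Positions are from GENCODE release M21 for GRCm38, which holds 27722 of the 28006 feature identifiers.

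Counts of gated cells were summed per library, scaled to CPM, and compared as log2 with 1 CPM added to each side, over genes with a mean of 20 CPM (1 CPM for the leukocyte lists). CPM have exact Poisson intervals. Ratios have exact binomial intervals conditional on the sum. The intervals are Clopper-Pearson for shares and Newcombe for differences of shares. UMIs were thinned without replacement to 3000 per cell (numpy 2.4.6). Doublets were not called. Alternatives leave out cells over 50000 UMIs or with UMIs of other lineages. TMM (edgeR 4.0.16) and DESeq2 1.42.0 gave alternative scalings only. Ratios and intervals were tried on simulated independent Poisson counts, the same assumption that the intervals make. That cannot show how the intervals hold where the UMIs of a gene lie in few cells.

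The members, 37 gene lists and named genes were chosen with earlier results of these data known. Genes named are 12 fixed ones, the 15 highest and 15 lowest (leaving out gene models and genes higher in leukocytes), up to 6 per list, and defining markers. Some items of the genotype and of the lists are not reported here.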

Additional observations from a re-analysis of the deposited data

Results flagged for a closer look

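Both depletion pairs were set side by side, and lists or named genes that differed in opposite directions are given here. The difference between the pairs was not tested, each side of each pair is 1 library, and the KPF1F2 pre-depletion library, whose title has another number than the other 3, held only 223 epithelial cells. The club cell list had a median of 1.41 in KP and -3.55 in KPF1F2. Scgb1a1 had a log2 difference of 1.84 in KP and -3.04 in KPF1F2, where it stood at 29536 and 3591 CPM. Scgb3a1 had 5.29 and -4.09, and Scgb3a2 had 3.05 and -4.07. Ctla2a had 2.97 and -2.83. The stomach and gut list had a median of 0.42 over 8 genes in KP and -1.05 over 3 genes in KPF1F2.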

How the results depend on the processing

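No paired analysis was possible because each group has 1 library. The 7 results on genes and lists were recomputed under 21 alternatives, 3 of them chosen after seeing the data, and the 4 state shares under 12. Each alternative applied the CPM minimum to its own values. List members, and so medians, can therefore differ from those of the same cells in the subset comparison above. The causes of the moves below were not tested. The count of genes 2-fold higher (47) was 27 with a CPM minimum of 50, 202 with none, 31 with equal weight per cell, 142 in cells of 10000 to 30000 UMIs, and 25 with post-depletion cells weighted to pre-depletion state shares. The count lower (16) was 9, 169, 28, 101 and 8 under the same settings, 10 with a pseudocount of 5 CPM and 47 in cells of at most 50000 UMIs. The immediate-early median (0.29) was 0.34 with a minimum of 50 CPM, 0.26 with DESeq2 size factors, 0.36 with equal weight, 0.12 with thinned cells, 0.38 at 10000 to 30000 UMIs, 0.34 at most 50000, 0.20 with state weights and 0.25 with Sftpc left out of the totals. The heat shock median (0.17) was 0.46 at 10000 to 30000 UMIs and 0.26 at most 50000. The leukocyte median (-1.04) was -0.74 with a pseudocount of 5, -2.43 with equal weight, -2.08 with thinned cells, -1.48 at 10000 to 30000 UMIs, -1.69 with Ptprc at most 1 UMI and -1.73 at most 50000 UMIs. It turned to 0.12 with the leukocyte profile subtracted, in an amount set from this same list and, post-depletion, from 3 leukocyte barcodes. The alveolar type 2 median (-0.67) was -0.36 with equal weight, -0.37 with thinned cells, -1.02 at 10000 to 30000 UMIs, -0.85 in CRE-ERT2-positive cells, -0.79 at most 50000 UMIs and -0.49 with state weights. The stomach and gut median (0.42) was 0.76 with thinned cells, 1.30 at 10000 to 30000 UMIs, 0.14 with Ptprc at most 1 UMI and 0.91 at most 50000. In percentage points, the Sftpc state difference (-6.61) was -0.35 when thinned to 1500 UMIs, -11.2 at 10000 to 30000 UMIs and 1.53, reversed, with a threshold of 10 UMIs. The Gkn2 difference (0.70) was 5.45 with a threshold of 1 UMI, 7.33 at 10000 to 30000 UMIs and 3.70 at most 50000. The Ctse difference (6.55) was 11.6 with a threshold of 1, 2.81 with 4, 8.94 at 10000 to 30000 UMIs and 10.6 in CRE-ERT2-positive cells. The Bex2 difference (0.52) was 2.50 when thinned to 1500. With 1 library a side, counting depth bounds the precision and library-to-library spread is unknown.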
